A study of Rattus norvegicus with 27 samples.

Results

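The glycolysis enzymes described here are 10 genes, Hk1, Pfkm, Aldoa, Gapdh, Pgk1, Pgam1, Eno1, Eno2, Ldha and Ldhb, found by their rat gene symbol among the 36865 rows of a table of raw read counts. Of these 10, 9 had reads and 1, Pfkm, had none. The counts came from single-read RNA sequencing of the medial prefrontal cortex (mPFC) of 27 adult male Wistar rats, an outbred strain obtained from Charles River, with 1 library per rat and no control group. All rats had been through the elevated plus-maze, light-dark and open field tests, the labels add acoustic startle and fear conditioning and name learned helplessness as the treatment, and tissue was taken in a resting state. The study picked these rats along a ranking of a composite anxiety score; the score of each rat was left out here, and the labels do not give the cohort of a rat although the study drew its male Wistar rats from more than 1 cohort. Each gene was followed by its level, its spread between rats and its correlation with the other enzymes. The rats were treated as 1 group, which limits every comparison below to natural differences between rats and to the number in the library name, described below.

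Glycolysis turns glucose into pyruvate in the cytosol and yields ATP without oxygen. Neurons and astrocytes both run it, and the adult brain lives almost wholly on glucose. Hexokinase 1 (Hk1) traps glucose in the cell, phosphofructokinase (Pfkm) commits it to the pathway, and aldolase A (Aldoa) splits the six-carbon sugar. Glyceraldehyde-3-phosphate dehydrogenase (Gapdh), phosphoglycerate kinase 1 (Pgk1), phosphoglycerate mutase 1 (Pgam1) and the enolases Eno1 and Eno2 carry the three-carbon sugars towards pyruvate. Lactate dehydrogenase subunits A and B (Ldha, Ldhb) interconvert pyruvate and lactate. Eno2 is known as neuron-specific enolase. Gapdh is widely used as a reference gene in quantitative PCR and served as such in the study, together with the cytoskeletal actin gene Actb.

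The libraries held between 4907255 and 12771309 counted reads, with a median of 8168801. The number in the library name parted these totals: the 16 libraries numbered 31 or lower had 4907255 to 8568317 reads and the 11 numbered 32 or higher had 9404220 to 12771309, with no overlap. The labels do not say what the number stands for, so this split is called the library number block; whether it matches the cohorts cannot be told from the labels. For most correlations the value inside each block is given too. The dissected tissue carried the markers of cortex: all 8 neuronal markers had a mean count of at least 10, with a summed normalized count of 58463 to 76093 in the lower block and 64505 to 81585 in the higher. Oligodendrocyte markers summed to 18078 to 62970 and 18153 to 36316, and markers of meningeal fibroblasts to 298 to 6612 and 362 to 3985. In such bulk samples fewer cells of a type and less RNA per cell cannot be told apart.

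Pfkm, the muscle-type phosphofructokinase, was listed at 0 reads in each of the 27 libraries. The other phosphofructokinase genes were counted readily: Pfkp had 3215 to 9198 reads per library and Pfkl 1382 to 4065. In the RefSeq annotation of the assembly GRCr8, Pfkm overlaps its neighbour Senp1, which was also at 0 in every library, whereas the next gene on the other side, Asb8, had 479 to 1217 reads. A count of 0 was common among protein-coding rows, at 29.4% of them. Among rows whose gene model overlaps another protein-coding gene in GRCr8, 24.9% were at 0 (864 of 3469), and among those without such an overlap 30.3% (5195 of 17155). No statement on the expression of Pfkm is drawn from the 0. Pseudogenes that carry a member's symbol took almost no reads: of 118 such rows, 1 had any, a Gapdh copy with 149 reads over all libraries. Reads that map equally well to a gene and its copies could still have been lost from the count of the gene itself.

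The regulatory sequence in front of 4 members is shown because these form 2 pairs whose levels tracked each other across rats, Gapdh with Eno1 and Pgam1 with Ldha. Each line gives the 250 bases before the transcription start, 5′ to 3′ on the gene's strand, taken from RefSeq (GRCr8). Capitals mark the letters ACGTG on either strand, the core bound by hypoxia-inducible factor 1, a regulator known for driving glycolysis genes.
Gapdh, chr4:159652468-159652717, minus strand: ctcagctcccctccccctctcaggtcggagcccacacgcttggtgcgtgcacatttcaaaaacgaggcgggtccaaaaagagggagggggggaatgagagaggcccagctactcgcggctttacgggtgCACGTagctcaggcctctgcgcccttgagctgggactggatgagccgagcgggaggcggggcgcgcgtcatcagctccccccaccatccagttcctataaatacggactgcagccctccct
Eno1, chr5:166002617-166002866, plus strand: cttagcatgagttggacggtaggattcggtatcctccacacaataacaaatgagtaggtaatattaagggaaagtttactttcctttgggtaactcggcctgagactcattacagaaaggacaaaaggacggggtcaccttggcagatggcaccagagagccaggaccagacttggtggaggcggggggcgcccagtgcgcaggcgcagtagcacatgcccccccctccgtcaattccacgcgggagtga
Pgam1, chr1:250672902-250673151, plus strand: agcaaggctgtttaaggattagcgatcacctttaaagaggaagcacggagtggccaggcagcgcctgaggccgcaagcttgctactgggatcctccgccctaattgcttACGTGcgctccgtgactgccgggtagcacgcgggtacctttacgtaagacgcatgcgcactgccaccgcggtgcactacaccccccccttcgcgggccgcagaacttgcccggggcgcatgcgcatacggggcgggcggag
Ldha, chr1:106507842-106508091, plus strand: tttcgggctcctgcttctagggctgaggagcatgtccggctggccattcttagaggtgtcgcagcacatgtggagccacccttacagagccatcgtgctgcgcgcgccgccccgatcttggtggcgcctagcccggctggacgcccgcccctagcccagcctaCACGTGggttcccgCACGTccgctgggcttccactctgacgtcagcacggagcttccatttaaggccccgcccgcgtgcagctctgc
A promoter window of 300 bases, from 250 bases before to 50 after the start, was given for 9 of the 10 members, all but Pgk1. ACGTG was in 5 of these 9 windows (Pfkm, Gapdh, Pgam1, Eno2 and Ldha) and in 19.7% of the 27457 promoter windows of the annotation. Ldha had 3 matches, beginning at bases -87, -86 and -73, of which those at -87 and -86 overlap in the palindrome CACGTG, the E-box, found in 6.65% of all windows. The match of Gapdh began at -121 and that of Pgam1 at -141. The GC box GGGCGG was present in 4 of the 9 (Pgam1, Eno2, Ldha and Ldhb) against 34.9% of all windows. A TATA box, TATAAA, stood at -26 in Gapdh, and 14.3% of all windows held these letters. Of the pairs shown, Gapdh held ACGTG and Eno1 none of the 4 motifs searched, while Pgam1 and Ldha both held ACGTG and the GC box.

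Every enzyme with reads kept within a narrow range between rats. Levels are given as normalized counts, that is, counts divided by the size factor of the library, and are compared between rats within a gene and not between genes, since transcript lengths were not used here. Hk1 ran from 4487 to 5992 normalized counts around a median of 5614. Aldoa ran from 18302 to 24448, with a median of 21604. Gapdh ran from 4223 to 5440, with a median of 4825. In each of these 3 genes the highest rat stood 1.29 to 1.34 times above the lowest, and library 5 gave the lowest value of both Aldoa and Gapdh.

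Pgk1, which makes the earliest ATP gained in the pathway, ran from 4357 to 5831 normalized counts around a median of 5007. Pgam1 ran from 7196 to 9041 around 8412. Ldha ran from 2716 to 3776 around 3297. Library 51 was the lowest of the 27 for both Pgam1 and Ldha, and library 3 was the highest for both Pgk1 and Pgam1. Ldhb, whose subunit prevails in tissues that take up lactate, ran from 4767 to 6859 around 5578, again with library 3 on top. Eno1, the enolase of most cell types, ran from 2857 in library 5 to 3974 around 3332. Eno2 had the widest range, from 5205 to 7814 around 6730, a ratio of 1.50 between the highest and the lowest rat.

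**Figure D1:**
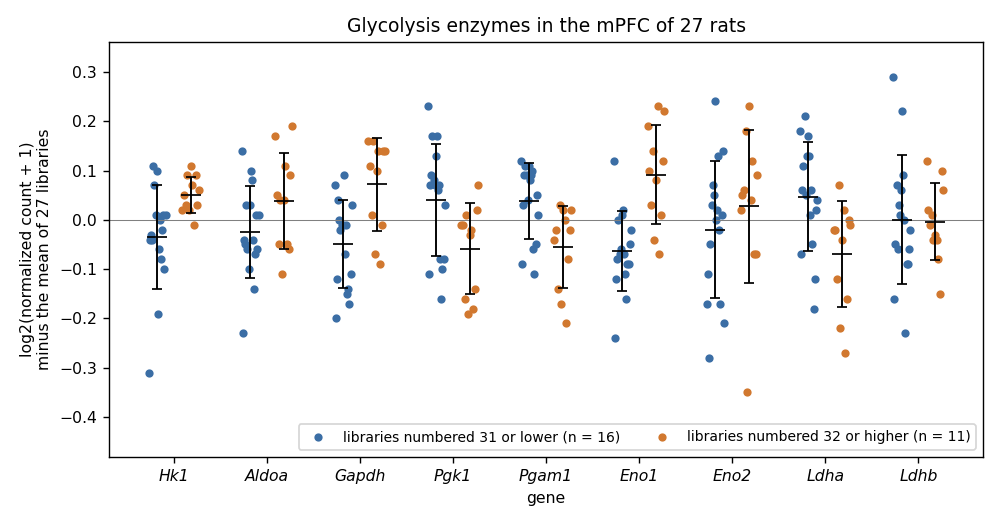
Each point is 1 library, plotted as log2(normalized count + 1) of a gene minus its mean over the 27 libraries (y axis) for the 9 enzymes with reads (x axis), split by library number block; black bars are the block mean ± SD (n = 16 and n = 11). All points lie within 0.35 of the mean on the log2 scale, Hk1 is narrow in the higher block, and the blocks of Gapdh and Eno1 are offset upwards and those of Pgk1, Pgam1 and Ldha downwards.

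The standard deviation (SD) of log2(normalized count + 1) was 0.09 for Hk1 and Pgam1, 0.10 for Aldoa, 0.11 for Gapdh and Ldhb, 0.12 for Pgk1, Eno1 and Ldha, and 0.14 for Eno2 (n = 27). Their median of 0.11 compares with 0.19 over the 11730 genes whose mean count reached 10, and 12.7% of those genes had an SD below 0.11. Abundant genes vary less in such data; among the genes within 2-fold of the same mean level, 14.6% were steadier than Pgam1, 15.9% than Hk1, 31.4% than Gapdh and 58.2% than Eno2. Counting noise made up between 1.04% (Aldoa) and 4.83% (Hk1) of the variance of the normalized counts. All 9 enzymes varied beyond counting error (chi-square test of dispersion, adjusted over 11730 genes, adjusted p at most 6.20e-83), as did 89.8% of all genes tested, so this call does not set the enzymes apart.

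As reference genes of the study, Gapdh and Actb differed in their steadiness. The coefficient of variation was 7.51% for Gapdh, with 4874 ± 366 normalized counts (SD, n = 27). It was 15.3% for Actb, with 13553 ± 2078 (SD, n = 27). Actb ranged from 11640 to 20927, and 87.9% of the genes of like level were steadier. Both differed between the library number blocks, in opposite directions. Gapdh was 4706 ± 293 in the lower block and 5118 ± 331 in the higher (SD, n = 16 and 11), and Actb was 14478 ± 2240 and 12208 ± 585. On the log2 scale the difference, higher minus lower block, was 0.12 ± 0.04 (SE) for Gapdh (edgeR's quasi-likelihood test, adjusted p = 0.0236) and -0.25 for Actb (adjusted p = 0.00903).

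Between the library number blocks, Gapdh and Eno1 were higher in the libraries numbered 32 or higher, and none of the other 7 enzymes passed the test. Eno1 went from a median of 3215 normalized counts (2857 to 3673) in the lower block to 3612 (3229 to 3974) in the higher, a log2 difference of 0.16 ± 0.04 (SE, edgeR adjusted p = 0.00359). All 11 libraries of the higher block exceeded the median of the lower block, 4 of them exceeded its highest library, and the ranges overlapped. Gapdh went from 4805 (4223 to 5174) to 5249 (4551 to 5440), with 7 of 11 libraries above the highest of the lower block. Over all genes, 8.85% of the 11716 tested were higher in the higher block and 9.18% lower, beside 2 of 9 enzymes higher and 0 of 9 lower by edgeR. At an unadjusted p below 0.05, 31.3% of all genes differed in either direction, and 6 of the 9 enzymes did, Eno1, Gapdh and Hk1 with higher values and Pgam1, Ldha and Pgk1 with lower ones. By the DESeq2 Wald test Pgam1 and Ldha passed (adjusted p = 0.0272 and 0.0466). Both also passed as lower in edgeR with the oligodendrocyte score as a covariate (adjusted p = 0.0289 and 0.0422).

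Pgk1, Pgam1 and Ldha had values on the other side. Pgam1 had a median of 8705 (7710 to 9041) in the lower block and 8192 (7196 to 8496) in the higher, and all 11 libraries of the higher block lay below the median of the lower. The log2 difference of Pgam1 was -0.09 ± 0.03 (SE, edgeR adjusted p = 0.0508). For Pgk1 it was -0.10 ± 0.04 (adjusted p = 0.0897), again with all 11 below the median of the lower block, and for Ldha -0.11 ± 0.04 (adjusted p = 0.0602), with 10 of 11 below. Hk1 gave 0.08 ± 0.03 (adjusted p = 0.0807), Aldoa 0.06 ± 0.04, Eno2 0.05 ± 0.05 and Ldhb -0.01 ± 0.05. Without libraries 12 and 20, which stood apart in ribosomal RNA in earlier results, Eno1 and Gapdh passed with adjusted p-values of 0.00622 and 0.0277 (edgeR). The call of Gapdh was lost when library 22, 32 or 53 was left out (adjusted p = 0.0567, 0.0717 and 0.0631), whereas Pgam1 and Ldha passed without library 5, 22, 24, 26, 32 or 53, Ldha also without 39, Pgk1 without 22 or 26, and Hk1 without 17. Read depth cannot be told apart from the block; within the blocks, the rank correlation of the level with the total count was -0.268 and 0.327 for Gapdh, -0.0882 and 0.318 for Eno1, and -0.194 and 0.0545 for Pgk1 (lower block, then higher).

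**Figure D2:**
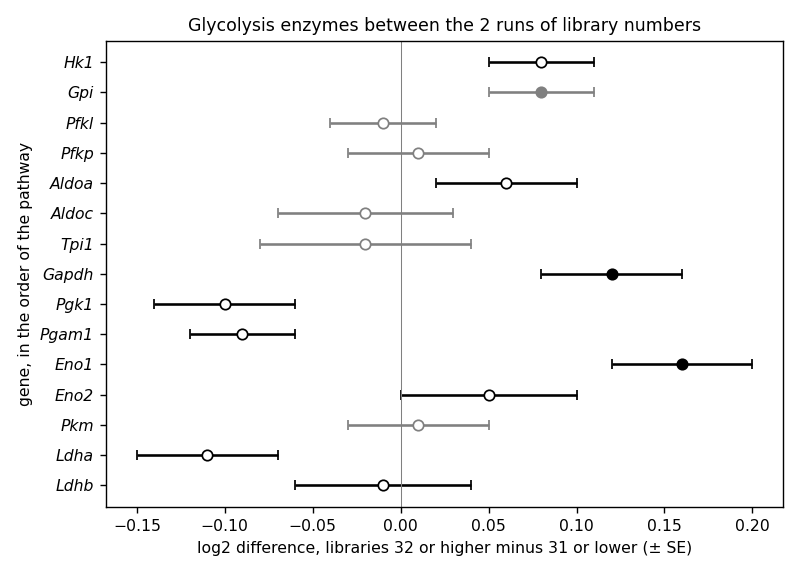
The x axis is the log2 difference in level, libraries numbered 32 or higher (n = 11) minus 31 or lower (n = 16), with its standard error from edgeR, and the y axis lists enzymes in pathway order. Black marks are the 9 enzymes described and grey marks 6 other genes of the pathway; filled marks passed at an adjusted p below 0.05, which among the genes drawn were Gpi, Gapdh and Eno1; Pgam2 and Hk3, which also passed, are not drawn.

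Across the 27 rats the enzymes fell into sets rather than 1 block of correlated genes. Over the 36 pairs of the 9 genes the median Spearman rho was 0.339, ranging from -0.0513 to 0.931, and 32 pairs were positive. Pairs of genes taken at large (1173 genes, taken at even steps through the tested genes) had a median of -0.00427, with quartiles of -0.203 and 0.199. All libraries share 1 size factor across their genes, so these coefficients are not free of it, and genes are not independent replicates.

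Pgk1, Pgam1 and Ldha followed each other most closely. The strongest pair was Pgk1 and Ldha, with a rho of 0.931 and an r of 0.935 (two-sided permutation tests, 100000 resamples, p = 1.00e-05 for both, the smallest that these can give). Leaving out the 2 libraries farthest from the median of Pgk1 left an r of 0.922, and the rho was 0.944 in the lower block and 0.836 in the higher. Pgk1 and Pgam1 had a rho of 0.916 (0.874 and 0.791 within the blocks), and Pgam1 and Ldha one of 0.910 (0.803 and 0.845). In these pairs the log2 ratio of the 2 genes had an SD of 0.04 to 0.05 between rats, a measure that needs no size factor, against 0.12 for either Pgk1 or Ldha alone.

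Aldoa, Gapdh and Eno1 formed a second set. Gapdh and Eno1 had a rho of 0.890 and an r of 0.892 (permutation p = 1.00e-05 for both, the smallest possible), an r of 0.866 without the 2 libraries farthest from the median of Gapdh, and a rho of 0.785 and 0.909 within the blocks. Aldoa and Eno1 had a rho of 0.757 (permutation p = 2.00e-05; 0.709 and 0.918 within the blocks), and Aldoa and Gapdh one of 0.745 (permutation p = 3.00e-05; 0.597 and 0.827). Among the 11721 genes outside the 10, 0 had a higher rho with Gapdh than Eno1 did and 1 had a higher rho with Eno1 than Gapdh did. For Aldoa, 25 had a higher rho than Eno1 and 29 a higher one than Gapdh. In the first set, 2 genes had a higher rho with Pgk1 than Ldha did and 3 a higher one than Pgam1, whereas 0 exceeded Pgk1 or Pgam1 for Ldha. The sets were seen in these data and are described without a test of the set.

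Between these sets the pooled correlations were low. The 9 pairs that join Pgk1, Pgam1 or Ldha with Aldoa, Gapdh or Eno1 had a median rho of 0.324, from 0.0733 to 0.437. Pgk1 and Eno1 had a rho of 0.118 and an r of 0.233 (permutation p = 0.555 for rho). Within the blocks the same pairs were higher. The median rho of the 9 pairs was 0.665 in the lower block and 0.809 in the higher; for Pgk1 and Eno1 it was 0.671 and 0.809, for Ldha and Eno1 0.685 and 0.900, and for Pgk1 and Gapdh 0.806 and 0.864 against 0.324 when pooled. With the block regressed out, the 21 pairs of the 7 genes other than Hk1 and Eno2 ranged from 0.613 to 0.913, with a median of 0.749. The pooled median over all 36 pairs went from 0.339 to 0.654 in the same step.

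**Figure D3:**
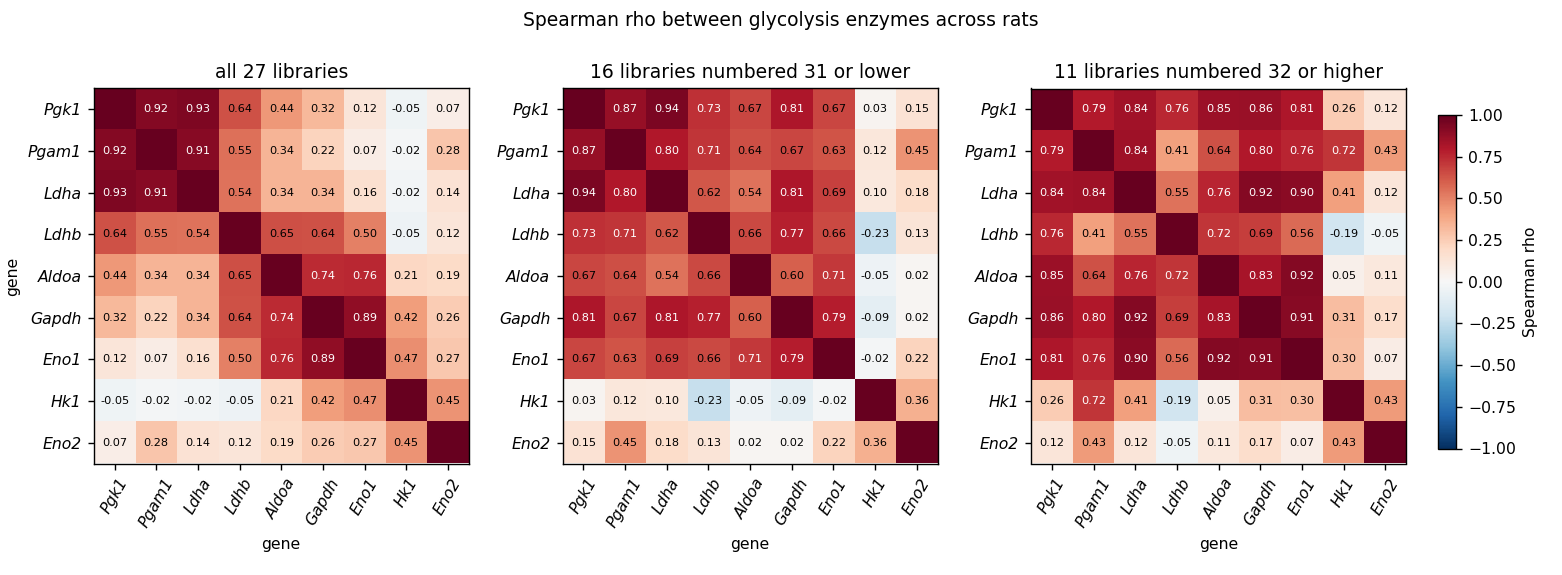
Spearman rho of the log2 levels for each pair of enzymes (both axes), over all 27 libraries (left), the 16 numbered 31 or lower (middle) and the 11 numbered 32 or higher (right), coloured from -1 to 1. On the left Pgk1, Pgam1 and Ldha form a set apart from Aldoa, Gapdh and Eno1; in the other panels the 7 upper genes form 1 set, and Hk1 and Eno2 stay mostly pale, the highest value being Hk1 with Pgam1 in the higher block (0.718).

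The ratio of Pgk1 to Gapdh shows the offset between the sets in single rats. These neighbours in the pathway, whose ratio was chosen after the correlations were seen and is given with no test, had a count ratio of 1.01 to 1.17 in the 16 libraries of the lower block, with a median of 1.09. In the 11 libraries of the higher block it was 0.908 to 0.969, with a median of 0.939. The blocks did not overlap, and within each of them the ratio spread by 1.16-fold and 1.07-fold between the highest and the lowest rat. How many other pairs of genes have a ratio that parts the blocks was not counted. Over all genes, 31.3% differed between the blocks at an unadjusted p below 0.05 (edgeR). For Ldha to Eno1 the ratio was 0.913 to 1.12 and 0.826 to 0.925, with 10 of the 11 higher-numbered libraries below every lower-numbered library. The SD of the log2 ratio of Pgk1 to Gapdh was 0.12 over all rats, and 0.06 and 0.03 within the blocks.

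**Figure D4:**
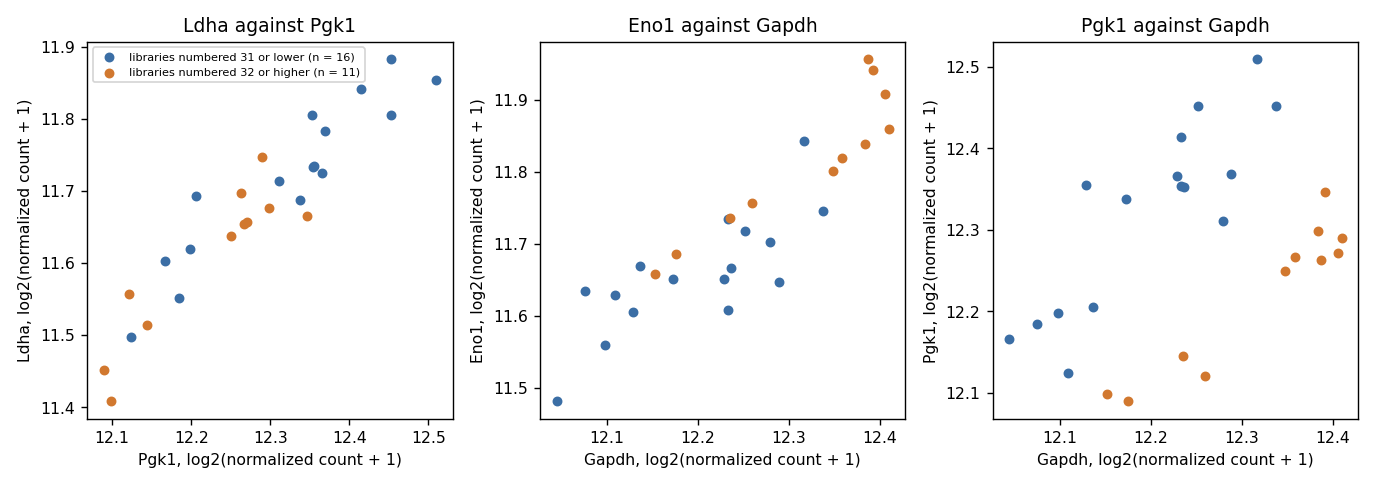
Log2(normalized count + 1) of Ldha against Pgk1 (left), Eno1 against Gapdh (middle) and Pgk1 against Gapdh (right), each point a library, coloured by library number block (n = 16 and n = 11). The blocks share a single line for Ldha and Pgk1 (rho 0.931), whereas for Pgk1 and Gapdh they lie on 2 separate lines (rho 0.806 and 0.864 within the blocks, 0.324 pooled).

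Tests of each relation were made by fitting all genes in edgeR on the level of 1 enzyme at a time, with p-values adjusted over all genes tested. With Pgk1, 4 of the 8 other enzymes rose (Aldoa, Ldha, Ldhb and Pgam1), beside 13.02% of all genes. With Pgam1 and with Ldha, 3 of 8 rose, beside 11.8% and 12.3% of all genes; with Ldhb, 6 of 8, beside 9.07%. With Gapdh only Aldoa and Eno1 rose, beside 0.940% of all genes; with Eno1, 2 of 8, beside 3.12%, and with Aldoa, 3 of 8, beside 3.61%. The share of all genes that fell was 9.40% with Pgk1, 8.66% with Pgam1, 9.04% with Ldha, 8.18% with Ldhb and 3.62% with Aldoa. The adjusted p was 2.69e-07 for Ldha on Pgk1 and 1.09e-04 for Eno1 on Gapdh. Of the 72 ordered pairs, 23 passed as rising and 0 as falling by edgeR, and 24 and 0 by the DESeq2 Wald test; at an unadjusted p below 0.05, 30 rose and 2 fell, both between Hk1 and Ldhb. With the block as a covariate, 42 passed as rising, namely all ordered pairs among Aldoa, Gapdh, Pgk1, Pgam1, Eno1, Ldha and Ldhb, and 1 as falling, Ldhb on Hk1 (adjusted p = 0.0290), so 1 of 8 enzymes fell with Hk1 beside 13.001% of all genes. The r of Hk1 with Ldhb was -0.431 over all rats, and 0.232 without the 2 libraries farthest from the median of Hk1. Hk1 on Ldhb did not pass with the covariate (edgeR adjusted p = 0.0990). In these covariate fits the share of all genes that rose was 6.85% with Aldoa, 8.08% with Gapdh, 9.01% with Pgk1, 6.93% with Pgam1, 5.81% with Eno1, 7.63% with Ldha, 11.3% with Ldhb and 12.98% with Hk1, so the share for Gapdh, Eno1 and Aldoa grew in the same step. The share that fell was 5.16% with Aldoa, 5.27% with Gapdh, 5.83% with Pgk1, 4.40% with Pgam1, 3.11% with Eno1 and 9.91% with Ldhb.

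Ldhb stood between the sets. Its rho was 0.647 with Aldoa, 0.639 with Pgk1, 0.636 with Gapdh, 0.551 with Pgam1, 0.542 with Ldha and 0.502 with Eno1, and none of these 6 fell below 0.409 within a block. It showed no offset between the blocks, with medians of 5577 and 5578 normalized counts.

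None of the other enzymes rose with Hk1 or with Eno2 by edgeR over all rats, and with the block as a covariate Ldhb fell with Hk1 (adjusted p = 0.0290), 1 of 8 beside 13.001% of all genes that fell in that fit. The pooled r of Hk1 and Ldhb changed sign, from -0.431 to 0.232, without the 2 libraries farthest from the median of Hk1. Hk1 had a median rho of 0.0925 with the 8 others. Its highest values were with Eno1 (0.468, permutation p = 0.0147) and Eno2 (0.446, permutation p = 0.0206), which were -0.0176 and 0.300 within the blocks for Eno1 and 0.359 and 0.427 for Eno2. The rho of Hk1 with Pgam1 was -0.0226 over all rats, 0.115 in the lower block and 0.718 in the higher. None of the 8 others rose with Hk1 (0 of 8 by edgeR and by the DESeq2 Wald test, and 0 rising at an unadjusted p below 0.05), beside 12.4% of all genes. Without the 2 libraries farthest from the median of Hk1, its r went from 0.192 to 0.598 with Gapdh and from 0.194 to 0.597 with Eno1. With Aldoa it went from -0.0469 to 0.435, and with Eno2 from 0.354 to 0.331. The fits on Hk1 were not repeated without these 2 libraries. Hk1 was also tied to the library depth over all rats (rho 0.641 with the log2 total count, 0.371 and 0.327 within the blocks), and its SD was 0.04 in the higher block against 0.09 overall. Eno2 had a median rho of 0.224 with the others, between 0.0702 and 0.446. No gene at all rose or fell with Eno2 (0% of 12026 genes tested, edgeR), 921 had an unadjusted p below 0.05, and the DESeq2 Wald test called 0 with 1033 unadjusted. In the lower block Eno2 followed the total count with a rho of 0.726, and in the higher with -0.0364.

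Isozyme pairs were compared through the ratio of their counts within a library, which needs no size factor but is not corrected for transcript length. The ratio of Ldhb to Ldha, the subunits of lactate dehydrogenase, was 1.43 to 1.85 with a median of 1.65 in the lower block, and 1.64 to 1.95 with a median of 1.80 in the higher. The mean log2 ratio was 0.73 ± 0.10 and 0.84 ± 0.09 (SD, n = 16 and 11), a difference of 0.11 (two-sided permutation test, 100000 resamples, p = 0.00816, 0.0245 adjusted over 3 ratios). The ranges overlapped, and 9 of the 11 higher-numbered libraries lay at or above the median of the lower block. This call was lost without libraries 12 and 20 (adjusted permutation p = 0.0516), without library 42 (0.0535) and without library 51 (0.0536).

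The ratio of neuronal to ubiquitous enolase, Eno2 to Eno1, was 1.60 to 2.32 (median 2.09) in the lower block and 1.58 to 2.23 (median 1.86) in the higher. The mean log2 ratio was 1.01 ± 0.16 and 0.91 ± 0.15 (SD, n = 16 and 11; permutation p = 0.0901, 0.135 adjusted), and of the single libraries left out only the loss of library 3 let it pass (adjusted permutation p = 0.0462). For Aldoc, the aldolase known from astrocytes, to Aldoa, the ratio was 0.335 to 0.478 (median 0.373) and 0.318 to 0.433 (median 0.358). The log2 means were -1.40 ± 0.15 and -1.48 ± 0.13 (SD, n = 16 and 11; permutation p = 0.146, 0.146 adjusted). With Pfkm at 0, no ratio of Pfkp to Pfkm was formed.

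**Figure D5:**
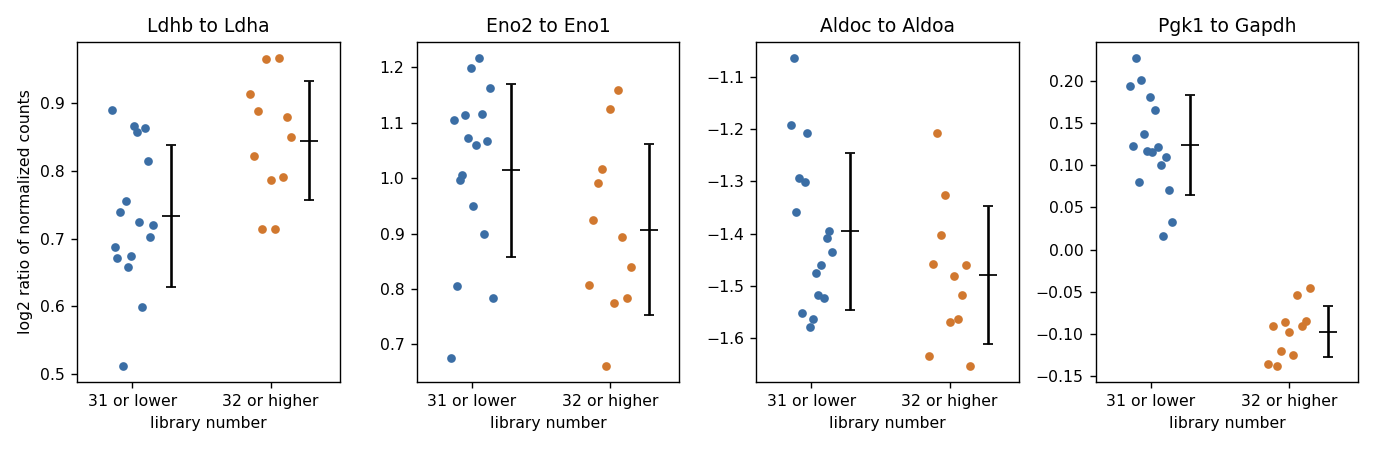
Log2 ratio of the normalized counts of 2 genes in each library (y axis, a separate scale in each panel) for the 3 isozyme pairs tested and for Pgk1 to Gapdh, by library number block (x axis); black bars are mean ± SD (n = 16 and n = 11). The blocks overlap for the isozyme pairs and do not overlap for Pgk1 to Gapdh.

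In a fit over all 27 libraries on the oligodendrocyte marker score, 1.50% of the 12027 genes tested rose or fell, and 0 of the 9 enzymes did, with 0 also at an unadjusted p below 0.05 and by the DESeq2 Wald test. Their log2 slopes per SD of the score lay between -0.04 and 0.00, with standard errors of at most 0.03. Within the blocks, the rho of Hk1 with this score was -0.226 in the lower and 0.791 in the higher, against 0.0983 when pooled, and that of Pgam1 was -0.0529 and 0.518; for the other 7 enzymes it lay between -0.471 (Eno2, lower block) and 0.218. Over 63 relations of the 9 enzymes with the scores of 7 marker lists, 2 passed by rank and 1 by Pearson's r. Gapdh rose with the neuronal score (rho 0.622, r 0.646, permutation p = 8.20e-04 and 4.90e-04, adjusted 0.0261 and 0.0309; r without the 2 farthest libraries 0.734), and its rho was 0.456 and 0.618 within the blocks. Hk1 had a rho of 0.610 with the neuronal score (permutation p = 8.30e-04, 0.0261 adjusted), an r of 0.558 (adjusted permutation p = 0.0639), an r of 0.391 without the 2 farthest libraries, and a rho of 0.544 and 0.0909 within the blocks. Of the 8 neuronal markers, 1, Rbfox3, was itself higher in the higher block (log2 difference 0.16, edgeR adjusted p = 0.0176), beside 8.85% of all genes; the part of neuronal content in the levels of Gapdh was not tested. Eno2, the neuronal enolase, had a rho of 0.361 with the same score (permutation p = 0.0642, 0.368 adjusted), with 0.506 and -0.0545 within the blocks. The other enzymes did not pass over all rats, but some had within-block values like those of Gapdh. These were 0.456 and 0.727 for Pgk1, 0.465 and 0.545 for Ldha, and 0.432 and 0.582 for Pgam1. For Aldoa they were 0.174 and 0.600, for Eno1 0.303 and 0.518, and for Ldhb 0.212 and 0.755.

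The remaining glycolysis genes of the table were read from a list of 19, of which 15 were tested. Between the blocks, Gpi, the isomerase after hexokinase, was higher (log2 difference 0.08 ± 0.03 SE, edgeR adjusted p = 0.0453), as was the muscle mutase Pgam2 (0.41 ± 0.14, adjusted p = 0.0408). Hk3, the hexokinase of myeloid cells, was lower (-1.27 ± 0.33, adjusted p = 0.00786) at a level of only 3 to 38 reads. The other 12, Pfkl, Pfkp, Aldoc, Tpi1 and Pkm among them, did not pass. These 2 of 15 genes higher and 1 of 15 lower stand beside 8.85% and 9.18% of all genes. With each of Pgk1, Pgam1 and Ldha, 3 of the 15 rose, Bpgm, Pkm and Tpi1, beside 13.02%, 11.8% and 12.3% of all genes, and 2 of 15 fell, Eno4 and Pgam2, beside 9.40%, 8.66% and 9.04%. With the block as a covariate these calls changed: Bpgm, Gpi and Pkm rose and Pgam2 fell with Pgk1, Bpgm, Gpi, Pkm and Tpi1 rose with Pgam1, and Gpi and Pkm rose with Ldha, while Eno4 passed with none of the 3. Pkm, the pyruvate kinase of brain, also rose with Ldhb and Aldoa, and its rho with Pgk1 was 0.762 and 0.755 within the blocks. Gpi rose with Gapdh, Eno1 and Aldoa, and had a rho of 0.802 with Gapdh and 0.278 with Pgk1 over all rats. Within the blocks the rho of Gpi was 0.618 and 0.882 with Gapdh and 0.756 and 0.682 with Pgk1. The SD of the log2 level ran from 0.07 for Pfkl to 0.98 for Hk3 in this list, whose median was 0.27.

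Genes that pass pyruvate on to the mitochondria were read from a list of 14, all tested. Of these, 7 rose with Pgk1 and 0 fell, beside the 13.02% of all genes that rose. These were both subunits of the mitochondrial pyruvate carrier, Mpc1 and Mpc2, the pyruvate dehydrogenase subunits Pdha1, Pdhb, Dld and Pdhx, and the phosphatase Pdp1 that switches the complex on. The same 7 rose with Ldha, beside 12.3% of all genes. With the block as a covariate, 7 still rose with Ldha and 6 with Pgk1, where Pdha1 no longer passed, beside 7.63% and 9.01% of all genes. The rho of Pdhb with Pgk1 was 0.886, and 0.812 and 0.873 within the blocks; that of Mpc1 was 0.833, 0.738 and 0.782. With Gapdh only Pdk2, a kinase that switches the complex off, passed among the 14, while 6 did with the block as a covariate (Dld, Mpc1, Mpc2, Pdha1, Pdhb and Pdp1), a step in which the share of all genes rising with Gapdh went from 0.940% to 8.08%. Between the blocks Pdk2 was higher (0.14 ± 0.03, edgeR adjusted p = 0.00396) and Pdhb lower (-0.13 ± 0.04, adjusted p = 0.0361).

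Among 10 glucose and lactate transporters, all tested, Bsg and Slc16a7 rose with Pgk1, beside the 13.02% of all genes that did, and 0 of 10 with Gapdh, beside 0.940%. With the block as a covariate, Bsg rose with Gapdh too, beside 8.08% of all genes, and with each of Aldoa, Pgk1, Pgam1, Eno1, Ldha and Ldhb. Bsg is the chaperone of the monocarboxylate transporters, with 3375 to 9732 reads, and its rho with Pgk1 was 0.414 over all rats and 0.712 and 0.491 within the blocks. Its rho with Gapdh was 0.658 over all rats and 0.665 and 0.555 within the blocks. Slc16a7, the neuronal lactate transporter, had 12 to 62 reads, and its rho with Pgk1 was 0.744 in the lower block and -0.0636 in the higher. The main glucose transporters of the blood-brain barrier and of neurons, Slc2a1 and Slc2a3, had a rho of -0.00977 and 0.230 with Pgk1; within the blocks it was 0.244 and -0.50 for Slc2a1 and 0.0265 and -0.00909 for Slc2a3. Between the blocks, Slc2a8 was higher (0.18 ± 0.04, edgeR adjusted p = 0.00101) and Slc16a3 lower (-0.70 ± 0.20, adjusted p = 0.0135, 17 to 76 reads).

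For each enzyme, the gene outside the 10 with the most similar pattern over the 27 rats was looked up among 11721 genes, as a description. For Pgk1 it was Atp6v1e1, a subunit of the vacuolar proton pump (rho 0.944, and 0.912 and 0.900 within the blocks). For Pgam1 it was Ywhae, a 14-3-3 protein (0.922; 0.824 and 0.882), and for Ldha Pfn2, a neuronal profilin (0.899; 0.894 and 0.809). For Gapdh it was Pebp1 (0.864; 0.741 and 0.882), for Eno1 the tubulin gene Tubb5 (0.896; 0.747 and 0.818), and for Aldoa Atp6v0d1, another proton pump subunit (0.889; 0.912 and 0.845). Ldhb was closest to Scg5 (0.847; 0.924 and 0.727), a chaperone of neuroendocrine granules, and Hk1 to Rptor (0.882), the mTOR complex partner, whose rho was 0.794 in the lower block and 0.445 in the higher. Eno2 had the least similar partner, Tk2 (0.696; 0.659 and 0.609). The mean z score of the 9 enzymes was closest to Ap2m1 (0.903), Ckmt1 (0.894), Ppp2r1a (0.871), Dctn2 (0.864) and Tubb3 (0.852), of which Ckmt1, the mitochondrial creatine kinase, also belongs to energy metabolism.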

How the data were processed

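The authors deposited raw counts, whole numbers of reads per gene and library that were not normalized. Trimmomatic, STAR and HTSeq are named, without versions, in the submitters' processing notes; the genome build, annotation and strandedness are not given in the sources used here, so reads of overlapping or near-identical genes are uncertain. The labels and the study's methods differ on the slice taken and on the library kit. Gene IDs were named from RefSeq (GRCr8), which named 27825 of 36865 rows, holding 99.5% of all counts. The enzymes, gene lists and tests were chosen with earlier results of these data known.

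Levels are counts divided by DESeq2 (1.42.0) size factors, on the scale log2(normalized count + 1) where stated. Gene-wise tests used edgeR (4.0.16), with filterByExpr, TMM and quasi-likelihood F-tests, Benjamini-Hochberg adjustment over all genes tested and a threshold of 0.05; the dispersion test and correlations used genes whose mean count reached 10. On simulated data with 200 changed genes, edgeR recovered 163 for the block, 197 for the oligodendrocyte score and 196 for Pgk1, with 4, 13 and 8 false calls among 11716 genes, and the dispersion test 185 with 9 false calls among 11730. Recovery of differences, slopes or spreads of the size seen in the enzymes was not tested. Single relations and ratios used two-sided permutation tests with 100000 resamples. A count of 0 allows up to 3 reads per library, counting error only.

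Named genes were the 10 enzymes, Actb, the members of fixed pathway lists with the highest or lowest values or that passed a test, the closest gene to each enzyme and the 5 closest to their mean z score; other genes shown for context, such as Senp1, Asb8, Slc2a1 and Slc2a3, and the ratios of Pgk1 to Gapdh and Ldha to Eno1, were chosen after their values were seen. A planned ratio and fit on Pfkm could not be made, since its counts are 0, so 36 and not 45 pairs and 3 and not 4 ratios were used. Alternatives were other scalings, other filters, the DESeq2 Wald test, covariates, each block alone, and leaving out libraries 12 and 20, which stood apart by ribosomal RNA in earlier results, or each library in turn.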

Additional observations from a re-analysis of the deposited data

How the results depend on the processing

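No paired analysis was possible because the 27 rats form 1 group and share no replicate numbers across groups. The median pairwise rho of the enzymes, 0.339, was 0.628 in the lower block alone, 0.664 in the higher block alone and 0.654 with the block regressed out; under the other scalings it was 0.360 (TMM), 0.247 (total count) and 0.329 (size factors of the genes whose mean count reached 10), and leaving out each library gave 0.282 to 0.379. The median SD of the log2 level stayed at 0.11 when any library was left out. The count of genes following the block, 2112, ran from 1808 to 2471 without single libraries, and that of genes following the oligodendrocyte score, 181, from 134 to 228; the latter was 374 with the block as a covariate. Of the 3 isozyme ratios, 1 passed, against 0 without libraries 12 and 20 and 0 to 2 without single libraries. The block difference of Ldhb, -0.01, was 0.00 under total counts and lay between -0.03 and 0.02 without single libraries. Gapdh's block difference was no longer past the threshold with the log2 total count in place of the block (adjusted p = 0.109), where Hk1 passed (edgeR adjusted p = 0.0413). Genes rising with Gapdh numbered 112 and, with the block as a covariate, 967; for Aldoa these were 434 and 824, for Eno1 372 and 695, for Pgam1 1414 and 829, and for Ldha 1469 and 913. Gapdh's count was 176 with DESeq2 size factors, 186 without a filter, 188 without libraries 12 and 20 and 301 by the DESeq2 Wald test. The total-count settings of the block difference, and the within-block values of single pairs, were added after seeing the data. The cause of these changes was not tested.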

Other observations

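Regulators of glycolysis were read from a list of 10 genes, with 8 tested. Hif1a, the oxygen-sensitive subunit of hypoxia-inducible factor 1, was lower in the higher block (log2 difference -0.17 ± 0.05 SE, edgeR adjusted p = 0.0165) and rose with Pgk1, Pgam1 and Ldha, beside 13.02%, 11.8% and 12.3% of all genes. Its rho with Pgk1 was 0.505 over all rats, 0.474 in the lower block and -0.264 in the higher, and with the block as a covariate it rose with none of the 3. Arnt, its partner subunit, fell with Pgk1, Pgam1, Ldha and Ldhb, beside 9.40%, 8.66%, 9.04% and 8.18% of all genes, and with the block as a covariate with Pgam1, Ldhb, Gapdh, Aldoa and Eno1 but not with Pgk1 or Ldha, where 4.40%, 9.91%, 5.27%, 5.16% and 3.11% of all genes fell with the former 5; its rho with Pgk1 was -0.379 and -0.909 within the blocks, at 83 to 345 reads per library. Pfkfb3, which makes an activator of phosphofructokinase and had 53 to 217 reads, fell with Aldoa and Ldhb, beside 3.62% and 8.18% of all genes, and rose with Hk1, beside 12.4%; it did so with the block as a covariate too, beside 5.16% and 9.91% falling and 12.98% rising. Egln1, a prolyl hydroxylase that marks Hif1a for breakdown, was listed at 0 in all libraries, and Vhl had the lowest SD of the list, 0.10.

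In the pentose phosphate pathway, which branches off after hexokinase, Pgls (0.23 ± 0.06) was higher in the higher block and Pgd (-0.15 ± 0.05) and Rpe (-0.17 ± 0.05) were lower (log2 difference ± SE, edgeR adjusted p = 0.0113, 0.0378 and 0.0117), although Pgls and Pgd catalyse successive steps. Tkt had an SD of the log2 level of 0.06, the lowest of the list. Taldo1 and Rpe rose with Pgk1 and with Ldha, beside 13.02% and 12.3% of all genes, and neither did with the block as a covariate. Taldo1 rose with Ldhb in both fits, beside 9.07% and 11.3% of all genes. With the covariate it also rose with Aldoa, Gapdh and Eno1, beside 6.85%, 8.08% and 5.81%. It fell with Hk1 in both, beside 1669 of 12107 genes and, with the covariate, 13.001%.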
